A study of Mus musculus with 8 samples.

Results

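The genes described here are the ligands, receptors, antagonists and Smad proteins of the bone morphogenetic protein (BMP) and transforming growth factor beta (TGF-beta) pathways, with the Id genes that BMP signals induce. They were chosen by symbol, and 64 of the 22200 genes in the deposited expression table matched, of which 63 are described. These are 10 BMP ligands, 10 growth and differentiation factors (GDFs), 3 TGF-beta ligands, 4 activin and inhibin beta subunits, 4 latent TGF-beta binding proteins, 12 receptors, 4 extracellular antagonists, 8 Smads and 4 Id genes. A further 4 genes carry TGF-beta or BMP in their name but have none of these roles. Messenger RNA was sequenced from immortalised mouse embryonic fibroblasts (MEFs) with a C57BL/6 background and the genotype label TAF4-/-, that is, without TAF4, which belongs to the basal transcription complex TFIID. Of the 8 libraries, 3 came from untreated cells at 12 h, 3 from cells treated with retinoic acid (RA) during 12 h and 2 from cells treated during 72 h. RA, which acts through nuclear receptors that bind DNA, was used in the study to follow early and later expression changes. All groups lack TAF4 by their labels, and no TAF4-expressing library is at hand for comparison. Per the study's methods the cells are a single line in which Cre recombinase had removed a floxed Taf4 allele. The sample titles carry cl1, which is close to the name the study gives its TAF4-expressing cells (C1), and its methods give a shorter second RA time. The labels were followed on both points.

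Ligands of this family are secreted dimers that bring type I and type II receptor kinases together at the cell surface. The activated type I receptor phosphorylates a receptor-activated Smad, which joins Smad4 and enters the nucleus. BMPs and several GDFs act through Smad1, Smad5 and Smad9, whereas TGF-betas and activins act through Smad2 and Smad3. Antagonists such as noggin and chordin trap ligands outside the cell, latent TGF-beta binding proteins hold TGF-beta in the matrix, and Smad6 and Smad7 feed back on the receptors. In fibroblasts TGF-beta is best known for raising matrix and contractile genes.

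The values are normalised reads per gene. The sorted values were identical in 8 of 8 columns, so the level of a gene is its place among the genes of a library, and sequencing depth is unknown. Replicates of a group correlated with Spearman's rho from 0.981 to 0.994 over the tested genes. One shared axis held 50.1% of the variance within groups. It set 4 libraries (the first and second untreated, the third of RA 12 h and the second of RA 72 h) apart from the other 4, and each call on the 63 genes is therefore also given within each of these sides of 4 libraries. Taf4a was listed at 984 to 1449 and its paralogue Taf4b at 49.5 to 99.0 in the 8 libraries. A gene's value can include exons outside the deleted part, so this checks nothing. Of 12 fibroblast markers 10 had a mean of at least 10, with Vim, Col1a1 and Fn1 high and Thy1 (1.00 to 3.50) and Dcn (1.00 to 8.00) at or near the lowest possible value of 1. The fibroblast markers summed to 247000 to 267000 in untreated cells, 247000 to 257000 after 12 h of RA and 225000 to 230000 after 72 h, and the part of this lower sum in the 72 h results was not tested. Summed markers of epithelial, endothelial, blood and skeletal muscle cells lay between 21.8 and 70.1 in each library. A mean of at least 10 was also reached by 3 of 4 endothelial, 2 of 4 skeletal muscle, 1 of 4 blood and 1 of 5 epithelial markers. That limit alone therefore does not separate the cell types. Epcam is not among the genes of the table. In bulk RNA, fewer cells of a type and less RNA per cell cannot be told apart.

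The stretch of DNA before the transcription start is shown for 4 of the genes whose level changed between the groups: the main BMP ligand, the Id gene that rose, an antagonist that fell and a matrix gene that fell. The sequences are from RefSeq (table on GRCm38.p6) and each was found once in mm9. They run 5′ to 3′ on the gene's strand and end at the base before the annotated start. Capitals mark GGCGCC, a motif linked to BMP-responsive genes.
Bmp4, chr14:47010345-47010594, minus strand: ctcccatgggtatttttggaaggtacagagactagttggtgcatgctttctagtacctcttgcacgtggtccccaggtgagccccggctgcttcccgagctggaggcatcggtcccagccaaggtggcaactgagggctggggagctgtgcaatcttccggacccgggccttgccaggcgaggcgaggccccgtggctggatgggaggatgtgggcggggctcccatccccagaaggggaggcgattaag
Id2, chr12:25780958-25781207, minus strand: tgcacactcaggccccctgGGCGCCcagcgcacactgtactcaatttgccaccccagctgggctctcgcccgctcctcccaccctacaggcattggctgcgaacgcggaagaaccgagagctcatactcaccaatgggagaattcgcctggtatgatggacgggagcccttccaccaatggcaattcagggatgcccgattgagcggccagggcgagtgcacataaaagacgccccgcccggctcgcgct
Chrd, chr16:20732950-20733199, plus strand: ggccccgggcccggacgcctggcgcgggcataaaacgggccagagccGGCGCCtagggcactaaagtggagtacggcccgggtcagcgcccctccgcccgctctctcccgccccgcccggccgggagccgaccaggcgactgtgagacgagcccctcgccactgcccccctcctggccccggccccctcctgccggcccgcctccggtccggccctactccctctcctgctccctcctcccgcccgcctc
Tgfbi, chr13:56710697-56710946, plus strand: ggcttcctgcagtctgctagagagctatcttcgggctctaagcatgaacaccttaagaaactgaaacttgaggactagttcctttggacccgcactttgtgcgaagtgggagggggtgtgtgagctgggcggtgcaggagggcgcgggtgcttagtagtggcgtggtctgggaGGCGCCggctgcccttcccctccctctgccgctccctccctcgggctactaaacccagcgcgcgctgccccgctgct
A window from 250 bases before to 50 after the start was at hand for 46 of the 63 genes, and for 6 of the 7 that changed. Gdf5 has no window. The windows of the 32 tested genes were searched on both strands for the retinoic acid receptor half-sites AGGTCA and AGTTCA, for each half-site repeated after 5 free bases, for GGCGCC and for the Smad palindrome GTCTAGAC. Apart from the repeats, which contain their half-sites, no motif contains another. GGCGCC occurred in 12 of the 32 windows (37.5%), compared with 25.7% of 8042 tested genes with a window and 11.9% of all 32851 windows. AGGTCA occurred in 1 window (3.12%, compared with 14.4% of tested genes and 16.3% of all windows) and AGTTCA in 2 (6.25%, compared with 11.4% and 14.0%). GTCTAGAC occurred in 1 (3.12%, compared with 0.298% and 0.213%). The repeats of AGGTCA and AGTTCA occurred in 0 of the 32 windows, and each in 0.0124% of tested genes. Of the 6 windows of changed genes, those of Chrd, Id2 and Tgfbi hold GGCGCC, 1 match each, and 0 hold a half-site. This says only that these letters are not in these windows.

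Many members of the family were barely present in these cells. Genes with a mean of at least 10 normalised reads over the 8 libraries were tested, which kept 43 of the 63, with means from 12.8 to 6650. The 20 that were not tested had means from 1.12 to 9.36, and 12 of them took the lowest value of 1 in at least 1 library. They are the ligands Bmp2, Bmp3, Bmp8a, Bmp8b, Bmp10, Bmp15, Gdf1, Gdf2, Gdf3, Gdf6, Gdf7, Gdf9, Gdf10, Gdf15, Inhbc and Inhbe, the type I receptors Acvr1c and Acvrl1, the antagonist Grem1, and Id4. The filter used the mean over all libraries, so a gene high in 1 group can pass through that group.

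To compare levels between genes, the mean over the 8 libraries was divided by the gene's exon length in kb. The labels describe a tag protocol that reads a transcript beside DpnII sites, and the study's methods describe fragmented RNA. Division by length suits the latter, so the order of genes holds only if the values came from fragmented RNA. On this scale Id2 (5233 normalised reads per exon kb), Id3 (3434) and Id1 (1029) were the highest of the 63 genes. Bmp4 followed at 639.8, above the other ligands: Tgfb3 reached 220.5, Tgfb1 80.2, Gdf5 80.0 and Inhba 35.4. Among the latent TGF-beta binding proteins Ltbp3 (584) and Ltbp1 (391) were the highest. Tgfbr2 (324) and Bmpr1a (151) led the type II and type I receptors, and Smad3 (249.6) and Smad6 (225) the receptor-activated and inhibitory Smads. Within the 10 BMP ligands, Bmp4 made up 97.4% to 97.9% of the summed level per exon kb in untreated cells, 94.4% to 96.1% after 12 h of RA and 95.2% to 95.7% after 72 h.

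**Figure D1:**
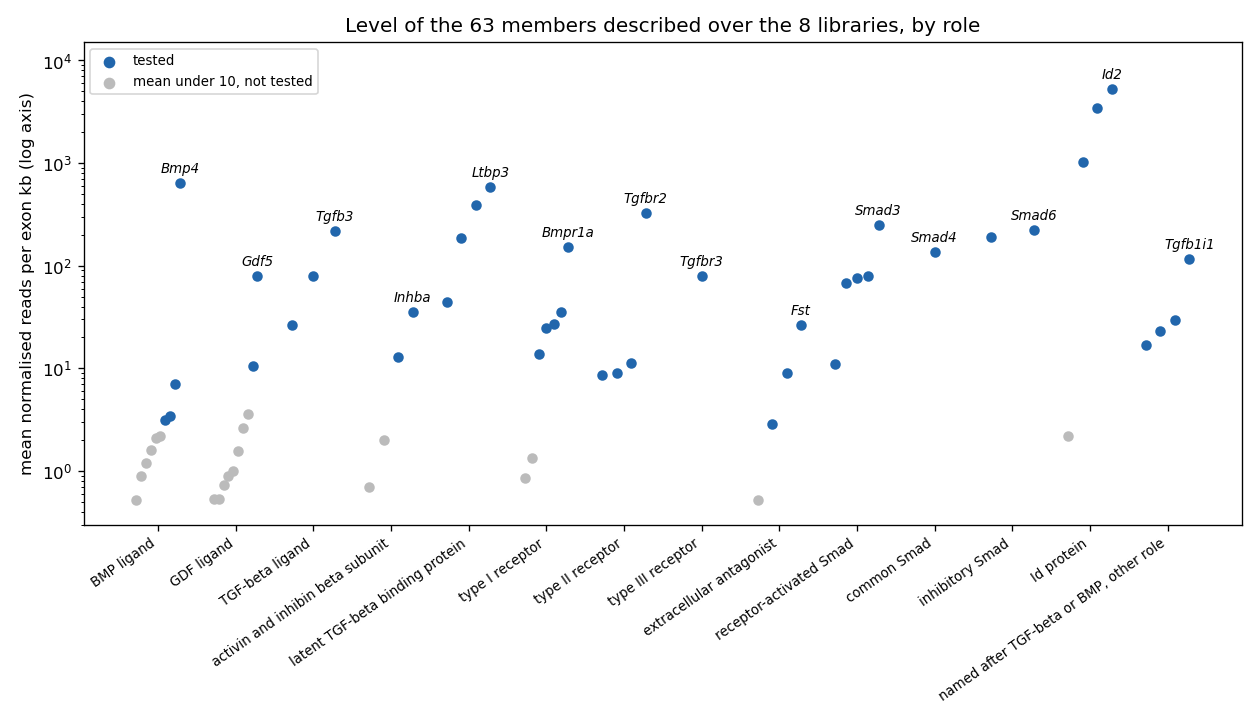
Mean level of the 63 genes over the 8 libraries, in normalised reads per exon kb on a log axis, by role, with the highest of these genes in each role named. Blue points are the 43 tested genes and grey points the 20 with a mean under 10; Id2, at 5233, is the highest point and Bmp4 stands far above the other 9 BMP ligands.

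Of the 43 tested genes, 7 were called as changed by at least 2-fold in a comparison with RA-treated cells. Bmp4 was lower at 12 h and at 72 h, Id2 was higher at both, and the remaining 5 were called only in comparisons with 72 h: Gdf5, Tgfb2 and Smad3 were higher, and Chrd and Tgfbi lower. Changes are log2 differences of (normalised reads + 1) with their SE from limma, fitted over 12673 genes. A gene was called when its change was at least 2-fold and its Benjamini-Hochberg adjusted p over these genes was below 0.05. At 12 h of RA 2 of the 43 tested genes (4.65%) were called, beside 1.42% of all genes tested: 1 was higher (background 1.11%) and 1 lower (0.308%). At 72 h against untreated cells 7 of 43 (16.3%) were called, beside 3.67%: 4 were higher (background 2.15%) and 3 lower (1.52%). Between 12 h and 72 h of RA 3 of 43 (6.98%) were called, beside 1.5%: 1 was higher (background 0.765%) and 2 lower (0.734%). Without the fold minimum the adjusted p was below 0.05 for 6 of 43 at 12 h, 4 higher and 2 lower (4.37% of all genes, 2.87% higher and 1.5% lower). It was below 0.05 for 14 at 72 h, 9 higher and 5 lower (11.5%, 6.08% and 5.41%), and for 8 between the RA times, 4 higher and 4 lower (5.84%, 2.92% and 2.92%). The library values of the groups did not overlap for 14, 23 and 17 of the 43 genes, beside 20.0%, 36.6% and 37.3% of all genes tested. The median log2 change of the 43 genes was -0.03 at 12 h, 0.05 at 72 h and 0.03 between the times, beside -0.02, -0.02 and -0.00194 over all genes.

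Both RA groups were compared with the same 3 untreated libraries, so these 2 comparisons share their controls. The untreated cells were harvested at 12 h, and RA and time in culture cannot be told apart at 72 h. Nothing in the labels says that replicates came from separate cultures, so the p-values measure only the spread between these libraries. In each of the 12 calls on these genes the groups did not overlap, so the same direction within both sides of the shared axis was fixed in advance. The sizes were not fixed: the smallest log2 change within a side was 0.92 in absolute size. Calls that were at least 2-fold within both sides numbered 2 at 12 h, 5 at 72 h and 2 between the RA times. The log2 change rose slightly with a gene's genomic span over all genes (rho 0.203 at 12 h and 0.178 at 72 h), and the tested genes described here are long, with a median span of 45.7 kb compared with 28.1 kb. Removing that trend left 2, 6 and 3 genes called.

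**Figure D2:**
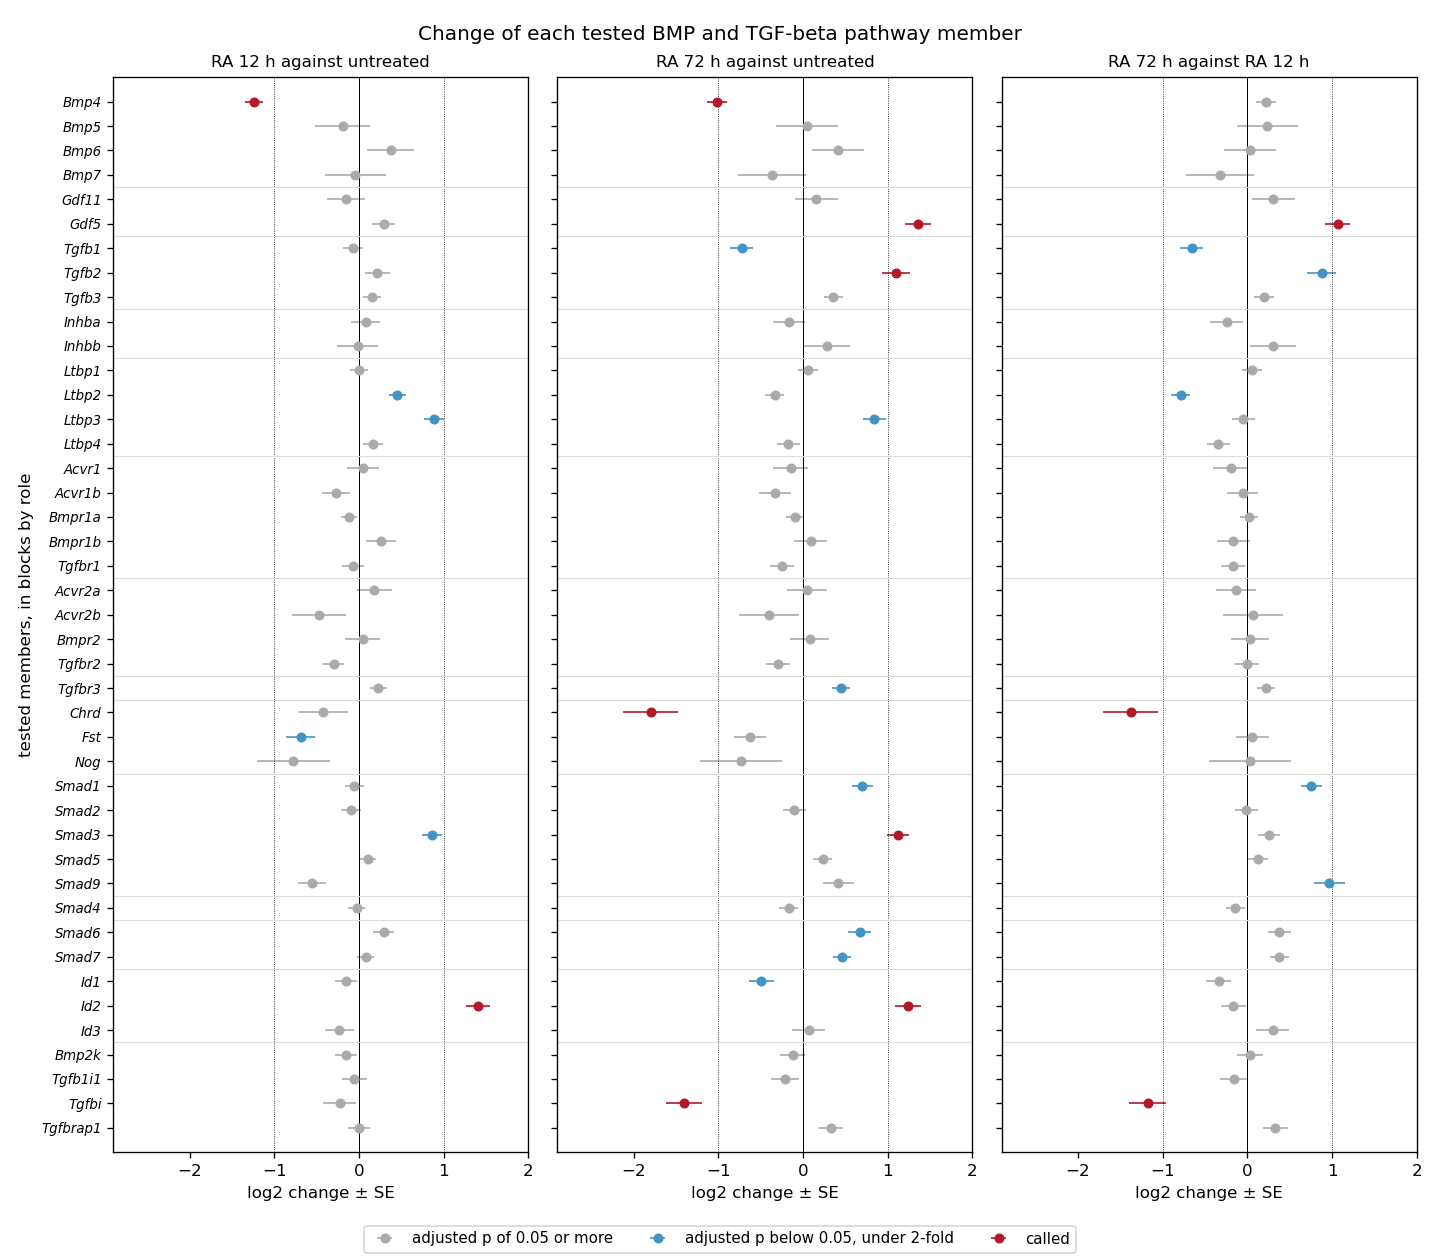
Log2 change with its SE of the 43 tested genes in the 3 comparisons, in blocks by role, with dotted lines at 2-fold. Red points were called, blue points had an adjusted p below 0.05 but changed by less than 2-fold, and grey points had an adjusted p of 0.05 or more; the 9 type I and type II receptors (Acvr1 to Tgfbr2) are grey in every panel.

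Bmp4 (ENSMUSG00000021835; mm9 chr14:47003195-47010344) encodes a BMP ligand with broad roles in embryonic patterning. Its level was 2215, 2217 and 2051 normalised reads in the untreated libraries, 881, 819.9 and 1064 after 12 h of RA, and 1077 and 1057 after 72 h. All 5 RA libraries lay below all 3 untreated ones, and those of the 2 RA times overlapped. Bmp4 fell 2.36-fold at 12 h (log2 change -1.24 ± 0.11 SE, adjusted p = 9.22e-06, limma) and 2.02-fold at 72 h (-1.02 ± 0.12, adjusted p = 9.56e-05). The change between RA times was 0.22 (adjusted p = 0.362). The call at 72 h sits on the 2-fold limit: the change was -1.0 without untreated replicate 1 or without replicate 2, -0.99 with the side as a term, -0.98 with a replicate block and -0.94 with the span trend removed. The adjusted p stayed below 0.05 in each of the 14 alternative fits, with a highest value of 0.00249. Within the 2 sides Bmp4 changed by -1.06 and -1.27 at 12 h, and by -1.07 and -0.93 at 72 h. The other tested BMPs were low: Bmp5, Bmp6 and Bmp7 lay between 6.75 and 30.5 in every library, and the smallest of their adjusted p in any comparison was that of Bmp6 at 72 h, 0.471.

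Gdf5 (ENSMUSG00000038259; chr2:155766759-155771103), a BMP-type ligand known for its part in joint formation, went the other way and later. It was read at 141, 129.9 and 107 in untreated cells, 160.5, 144 and 157 after 12 h of RA, and 314 and 332 after 72 h. Both 72 h libraries were above every other library. Gdf5 rose 2.57-fold at 72 h against untreated cells (1.36 ± 0.15, adjusted p = 5.79e-05) and 2.09-fold from 12 h to 72 h (1.07 ± 0.15, adjusted p = 0.00101), whereas at 12 h the change was 0.29 (adjusted p = 0.306). The call held in each alternative fit at 72 h and between the RA times, and the 2 sides gave 1.28 and 1.55 against untreated cells and 1.08 and 1.04 between the RA times. Gdf11, the other GDF tested, lay between 31.4 and 53.5 in the 8 libraries.

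**Figure D3:**
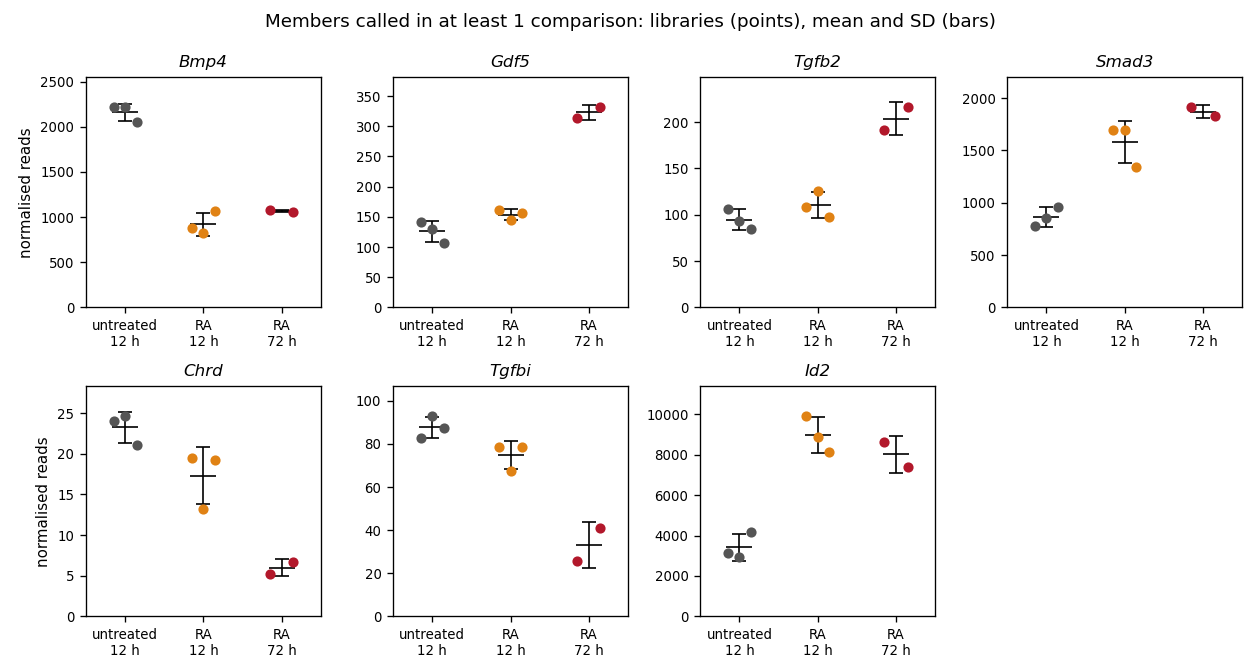
Normalised reads of the 7 genes called in at least 1 comparison; points are libraries, horizontal bars group means and error bars the SD, with each axis starting at 0. Bmp4 and Id2 were called at 12 h, although the 12 h libraries of every gene shown except Tgfb2 lie outside its untreated range. The 72 h libraries of Gdf5, Tgfb2, Smad3, Chrd and Tgfbi stand apart from both other groups.

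Of the TGF-beta ligands, Tgfb2 rose at 72 h of RA and Tgfb1 was lower. Tgfb2 (ENSMUSG00000039239; chr1:188447065-188529871) was at 107, 93.1 and 84.9 in untreated cells, 108, 126 and 97.8 after 12 h of RA, and 191 and 216 after 72 h. It rose 2.14-fold at 72 h (1.10 ± 0.17, adjusted p = 0.000813), and this call held in each alternative fit and within the 2 sides (1.11 and 1.16). The 72 h libraries were above all 6 others. Against 12 h of RA the change was 0.88 (adjusted p = 0.00764), under the 2-fold minimum, and the adjusted p was 0.108 without RA 72 h replicate 2. Tgfb1, the ligand most studied in fibrosis, was at 231, 212 and 254, then 219, 219 and 226, then 138 and 141. It was lower at 72 h than in untreated cells by 1.65-fold (-0.73 ± 0.13, adjusted p = 0.00285), under the 2-fold minimum, with both 72 h libraries below the other 6. The adjusted p of its change from 12 h to 72 h (-0.66, adjusted p = 0.0102) was 0.0903 or 0.0809 when either library of RA 72 h was left out, and 0.0563 with a replicate block. Tgfb3, the highest of the 3 per exon kb, was at 702, 661 and 643, then 736, 680.0 and 829, then 821 and 895, and its change at 72 h was 0.36 (adjusted p = 0.0682). Both 72 h libraries lay above the untreated ones, and with the span trend removed the change was 0.40 (adjusted p = 0.0376), under 2-fold. As shares of the summed level of the 3 ligands per exon kb, Tgfb1 made up 27.9% to 32.4% in untreated cells and 15.2% to 16.1% at 72 h, Tgfb2 5.71% to 6.88% and 11.7% to 12.3%, and Tgfb3 61.9% to 65.7% and 72.2% to 72.6%. These shares are a description without a test. The activin subunit gene Inhba was at 67.4, 68.8 and 75.1 in untreated cells, 68.1, 73.0 and 82.6 after 12 h of RA, and 71.5 and 54.8 after 72 h, with overlapping groups. Inhba and Inhbb (37.6 to 68.4 in the 8 libraries) gave adjusted p of 0.552 or more in the 3 comparisons.

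TGF-beta is secreted in a latent complex that Ltbp1, Ltbp3 and Ltbp4 tie to the matrix, while Ltbp2 does not bind the latent ligand. Ltbp3 was at 1789, 2004 and 2199 in untreated cells, 4072, 3454 and 3564 after 12 h of RA, and 4053 and 3146 after 72 h. The 5 RA libraries exceeded the 3 untreated ones. Its increase was 1.85-fold at 12 h (0.89 ± 0.12, adjusted p = 0.000486) and 1.79-fold at 72 h (0.84 ± 0.13, adjusted p = 0.00105), under the 2-fold minimum both times, and without RA 72 h replicate 2 it passed at 72 h (1.03). Ltbp2 was at 1252, 1488 and 1511, then 1957, 1866 and 1979, then 1143 and 1098. It was therefore highest at 12 h of RA and lowest at 72 h, with no overlap between any of the 3 groups. The change at 12 h was 0.45 (adjusted p = 0.0179) and that from 12 h to 72 h -0.79 ± 0.11 (adjusted p = 0.00091). The first of these was not below 0.05 without untreated replicate 1 (adjusted p = 0.0988) or without any single RA 12 h library (0.0604 to 0.0856), while the second was below 0.05 in each alternative fit. Ltbp1, the best known of the 4, was at 4221, 4445 and 3754, then 4032, 4072 and 4307, then 3925 and 4690.2, and the groups overlapped. Ltbp4 lay between 241 and 349.9. At 12 h 4 of 4 changes were positive, that of Ltbp1 being 0.00185, and their median was 0.31. At 72 h 2 were positive and 2 negative (median -0.06), and between the RA times 1 was positive and 3 negative (median -0.19).

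The receptors that start the signal gave no call. Of 9 type I and type II receptor genes tested, 0 had an adjusted p below 0.05 in limma, and the lowest was 0.257 at 12 h, 0.22 at 72 h and 0.581 between the RA times. Over all genes tested the shares below 0.05 were 4.37%, 11.5% and 5.84%, so 0 of 9 does not set the receptors apart from other genes. At an unadjusted p below 0.05 there was 1, Tgfbr2 at 12 h (unadjusted p = 0.0345). Tgfbr2, which binds TGF-beta itself, was at 3358, 2419 and 3154 in untreated cells, 2287, 2262 and 2661 after 12 h of RA, and 2532 and 2266 after 72 h. Untreated replicate 2 lay within the range of the RA libraries, and the change was -0.30 at both times. Bmpr1a, the highest type I receptor and one that binds BMP4, was at 972, 1077 and 965, then 919.9, 926 and 928, then 901 and 979. The 95% intervals of the 9 log2 changes ran from -1.15 to 0.64 at 12 h, from -1.17 to 0.57 at 72 h and from -0.70 to 0.83 between the RA times. Both lowest bounds at 12 h and 72 h belong to Acvr2b (9.88 to 22.8 normalised reads), so a 2-fold decrease of that low gene lies within its interval. The remaining 8 receptors were Acvr1, Acvr1b, Bmpr1a, Bmpr1b, Tgfbr1, Acvr2a, Bmpr2 and Tgfbr2. Tgfbr3, a co-receptor that presents TGF-beta2 to the signalling receptors, was at 460.1, 428 and 449.6, then 521, 512 and 533, then 579 and 641. The 3 groups did not overlap, and the change at 72 h was 0.45 ± 0.11 (adjusted p = 0.0164), under 2-fold. That p was 0.0605 and 0.164 without RA 72 h replicate 1 or 2, 0.134 with the span trend removed, 0.0593 with a replicate block and 0.0571 in the fit of the 2 groups compared.

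The extracellular antagonists Chrd, Fst and Nog were tested, and 3 of 3 had a negative log2 change at both RA times. Of all 12673 genes tested, 6655 had a negative change at 12 h and 6710 at 72 h, so the sign alone does not set these 3 apart. Among 16 other antagonists and modulators tested, 6 changes were positive at 12 h and 8 at 72 h. The median change of Chrd, Fst and Nog was -0.69 at 12 h of RA and -0.74 after 72 h, the latter being that of Nog, whose direction at 72 h differed between the 2 sides. Of these, 0 were called at 12 h, where limma gave 1 an unadjusted p below 0.05 (Fst, unadjusted p = 0.00144), and 1, Chrd, was called at 72 h. Chrd (ENSMUSG00000006958; chr16:20733200-20742457) encodes chordin, which holds BMPs away from their receptors. It was a low gene in these cells, at 24.0, 24.6 and 21.1 in untreated cells, 19.5, 13.2 and 19.2 after 12 h of RA, and 5.25 and 6.75 after 72 h. The 72 h libraries were below all others. Chrd fell 3.48-fold at 72 h against untreated cells (-1.80 ± 0.32, adjusted p = 0.00247). From 12 h to 72 h it fell 2.60-fold (-1.38 ± 0.32, adjusted p = 0.0229), a call that was lost in 7 of 14 alternative fits. These were a pseudocount of 10 (-0.77), no filter on low values (adjusted p = 0.067), a replicate block (0.0825), and the fits that left out RA 12 h replicate 1 (0.105), RA 12 h replicate 3 (0.068), RA 72 h replicate 1 (0.165) or RA 72 h replicate 2 (0.0868). Within the 2 sides Chrd changed by -1.71 and -1.82 against untreated cells and by -1.39 and -1.45 between the RA times. Fst encodes follistatin, which neutralises activins. Its values were 96.9, 78.2 and 101 in untreated cells, 52.4, 53.8 and 63.6 after 12 h of RA, and 60.9 and 56.9 after 72 h, so the untreated libraries were above all others. The change was -0.69 at 12 h (adjusted p = 0.0368) and -0.63 at 72 h (adjusted p = 0.0512), and the first was not below 0.05 in 8 of 14 alternatives, with a highest adjusted p of 0.17 without untreated replicate 1. Nog, the gene of the BMP antagonist noggin, was at 18.6, 45.8 and 11.2, then 10.0, 10.0 and 17.6, then 12.4 and 12.5. Its untreated replicate 2 stood high, its change at 72 h was -1.17 within one side and 0.13 within the other, the groups overlapped, and the adjusted p was 0.408 at 12 h and 0.398 at 72 h.

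Of the 8 Smads 1 was called, Smad3 at 72 h of RA. Smad3 (ENSMUSG00000032402; chr9:63494574-63605801), which carries TGF-beta and activin signals, was at 776, 856 and 959 in untreated cells, 1697, 1694 and 1344 after 12 h of RA, and 1914 and 1827 after 72 h. The 3 groups did not overlap. Smad3 was 1.82-fold higher at 12 h (0.87 ± 0.12, adjusted p = 0.000473), under the 2-fold minimum, and rose 2.17-fold at 72 h (1.12 ± 0.13, adjusted p = 8.34e-05), a call held in each alternative fit. Within the 2 sides the change at 72 h was 1.16 and 0.996, the second just under 2-fold. Smad2, the partner of Smad3 in the same branch, was between 242 and 309.9 in all libraries, with changes of -0.10 at both times. Of the summed level of the 5 receptor-activated Smads per exon kb, Smad3 made up 37.8% to 45.4% in untreated cells. Its share was 52.6% to 59.4% after 12 h of RA and 54.2% to 55.7% after 72 h.

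In the BMP branch, Smad1 was at 444, 415 and 369 in untreated cells, 389, 366 and 426 after 12 h of RA, and 654 and 674 after 72 h. The first 2 groups overlapped and the 72 h libraries lay above both. It was 1.62-fold higher at 72 h than in untreated cells (0.70 ± 0.12, adjusted p = 0.00212) and 1.69-fold higher than at 12 h of RA (0.75 ± 0.12, adjusted p = 0.00268), under 2-fold in both. Smad9 was at 60.2, 61.5 and 61.1, then 40.4, 38.8 and 45.0, then 85.6 and 78.0. Its groups did not overlap, lowest at 12 h of RA and highest at 72 h. The changes against untreated cells were -0.55 (adjusted p = 0.0911) and 0.42 (adjusted p = 0.19). From 12 h to 72 h Smad9 was 1.96-fold higher (0.97 ± 0.19, adjusted p = 0.00744); it passed the 2-fold minimum without RA 12 h replicate 3 (1.03), and the adjusted p was 0.093 and 0.0563 without RA 72 h replicate 1 or 2. Smad5 was between 458 and 553, with a change of 0.23 at 72 h (adjusted p = 0.24). Smad4, the common partner, was at 569, 523 and 496, then 534, 513 and 508, then 456 and 483, and had an adjusted p of 0.399 at 72 h.

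Both inhibitory Smads had an adjusted p below 0.05 at 72 h without reaching 2-fold. Smad6, which acts mainly on BMP signals, was at 585, 613 and 517 in untreated cells, 689, 714 and 694 after 12 h of RA, and 778 and 1058 after 72 h. The groups did not overlap, but the 2 libraries at 72 h were far apart. The change at 72 h was 0.67 ± 0.14 (adjusted p = 0.00553), under 2-fold, and the adjusted p was 0.107 without RA 72 h replicate 2. Smad7, which blocks both branches, was at 821, 759.6 and 734, then 764, 803 and 881, then 1028 and 1092. Its 72 h libraries lay above the other 6, with a change of 0.46 (adjusted p = 0.0152) that was not below 0.05 without RA 72 h replicate 1 (0.0766) or 2 (0.13) or with a replicate block (0.0552).

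**Figure D4:**
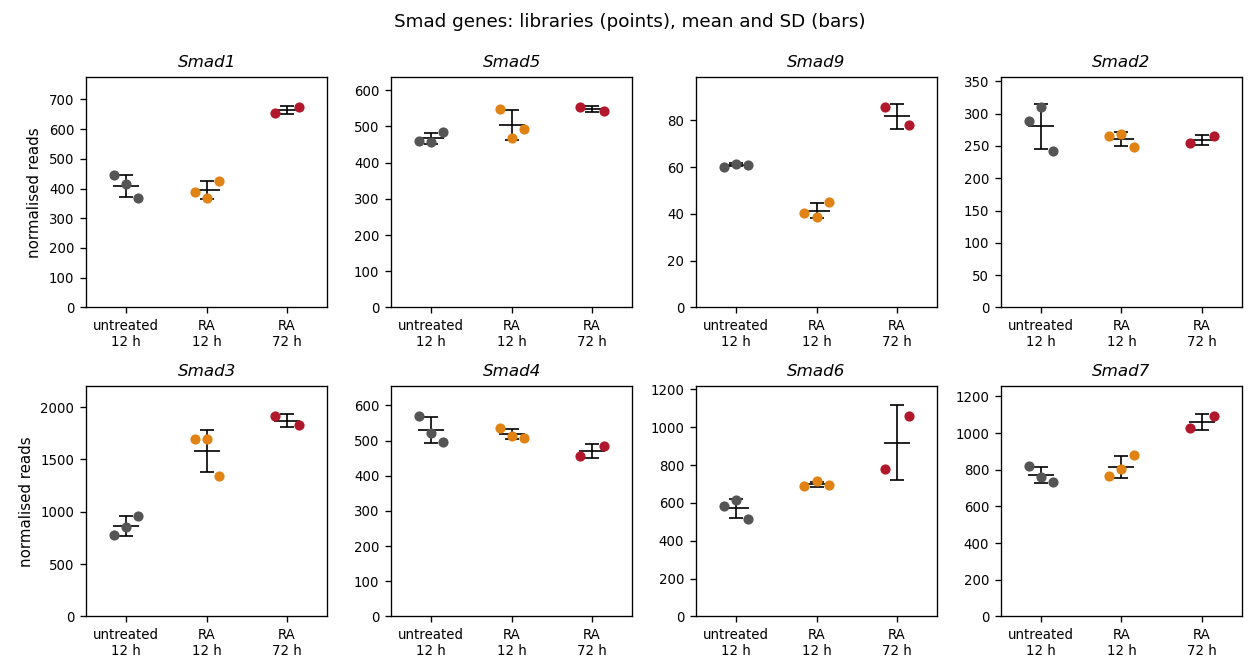
Normalised reads of the 8 Smad genes; points are libraries, horizontal bars group means and error bars the SD, with each axis starting at 0. Smad3 is already higher at 12 h of RA, Smad1, Smad6 and Smad7 are highest at 72 h, Smad9 is lowest at 12 h and highest at 72 h, and Smad2 and Smad4 stay within narrow ranges.

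Of the 3 Id genes tested, Id2 rose with RA. Id proteins bind basic helix-loop-helix factors and keep them off DNA, and Id1, Id2 and Id3 are classical BMP targets. Id2 (ENSMUSG00000020644; chr12:25778666-25780957) was at 3154, 2917 and 4168 in untreated cells, 9902, 8858 and 8145 after 12 h of RA, and 8647 and 7373 after 72 h. The 5 RA libraries were above the 3 untreated ones. Id2 rose 2.65-fold at 12 h (1.41 ± 0.14, adjusted p = 2.33e-05) and 2.37-fold at 72 h (1.24 ± 0.15, adjusted p = 0.000125), and both calls held in each alternative fit. The 2 sides gave 1.42 and 1.17 at 12 h and 1.28 and 1.05 at 72 h. Id1 was at 1514, 1382 and 1138, then 1396, 1106 and 1113, then 877 and 1024. Both 72 h libraries were the lowest, and the change at 72 h was -0.49 ± 0.15 (adjusted p = 0.0437), under 2-fold. That p was below 0.05 in 5 of 14 alternatives and reached 0.339 without RA 72 h replicate 1. Id3 was at 6173, 8326 and 4974, then 4836, 5000.1 and 6524, then 5958 and 7413, with overlapping groups and an adjusted p of 0.46 or more in the 3 comparisons. Of the summed Id level per exon kb, Id2 made up 28.2% to 46.6% in untreated cells, 58.2% to 66.6% after 12 h of RA and 53.6% to 62.5% after 72 h.

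Of the 4 genes named after the pathway but with none of the roles above, 1 changed. Tgfbi (ENSMUSG00000035493; chr13:56710920-56740923) encodes a secreted matrix protein that TGF-beta induces in many cells. It was at 83.0, 92.9 and 87.5 in untreated cells, 78.8, 67.6 and 78.4 after 12 h of RA, and 25.8 and 40.9 after 72 h. Both 72 h libraries lay below all others. Tgfbi fell 2.65-fold at 72 h against untreated cells (-1.41 ± 0.21, adjusted p = 0.000721) and 2.26-fold from 12 h to 72 h (-1.18 ± 0.21, adjusted p = 0.0055). The second call was lost with a pseudocount of 10 (-0.99) and without RA 72 h replicate 1 (-0.85, adjusted p = 0.0832). Within the 2 sides Tgfbi changed by -1.08 and -1.73 against untreated cells, and by -0.92 and -1.47 between the RA times. Tgfb1i1, a focal adhesion protein and the highest of the 4 per exon kb, was at 504, 705 and 494, then 473, 530.1 and 622, then 454 and 513, with overlapping groups. Tgfbrap1 and Bmp2k had adjusted p of 0.188 or more.

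Other genes of the pathway were taken from lists drawn up by role. The largest change among them was in the RNA of Thbs1, in the list of latency and activation genes, while activation of TGF-beta was not measured. Thbs1, whose product thrombospondin-1 can release TGF-beta from its latent complex, was at 47208, 53627 and 36832 in untreated cells, 24403, 25192 and 25192 after 12 h of RA, and 6948 and 7089 after 72 h. The 3 groups stepped down without overlap. Thbs1 fell 6.46-fold at 72 h (-2.69 ± 0.15, adjusted p = 1.22e-07) and 3.55-fold from 12 h to 72 h (-1.83 ± 0.15, adjusted p = 2.25e-05). At 12 h its change was -0.86 ± 0.13 (adjusted p = 0.00149), under 2-fold. Fbn2, the microfibril protein fibrillin-2, was at 352, 273 and 284, then 140.2, 120 and 147, then 99.2 and 148, with all 5 RA libraries below the untreated ones. It fell 2.22-fold at 12 h (-1.15 ± 0.17, adjusted p = 0.000881) and 2.47-fold at 72 h (-1.31 ± 0.19, adjusted p = 0.000432). Of the 9 genes of this list tested, 0 were called higher in any comparison, while Fbn2 was called lower at both times and Thbs1 at 72 h. Over all genes tested 1.11%, 2.15% and 0.765% were called higher at 12 h, at 72 h and between the RA times. The 0 of 9 therefore does not set this list apart. In either direction the shares over all genes were 1.42%, 3.67% and 1.5%, and the counts of the lists that follow stand beside these. Of 16 other extracellular antagonists and modulators tested, 0 were called at 12 h and 1 at 72 h: Tll1, a protease of the family that cuts chordin, was at 284, 298 and 274, then 259, 237 and 248, then 130.0 and 137, and fell 2.13-fold (-1.09 ± 0.13, adjusted p = 7.74e-05). Of 4 other ligands and co-receptors tested, 0 were called, and the largest change was that of Eng, the TGF-beta co-receptor endoglin, at 72 h (-0.68, adjusted p = 0.106). The BMP co-receptor gene Rgma had an adjusted p below 0.05 at 72 h (-0.63, adjusted p = 0.0185), under 2-fold. Of 17 intracellular regulators tested, 1 was called: Pmepa1 (listed as Tmepai), which TGF-beta induces and which restrains Smad2 and Smad3. It was at 2838, 2736 and 2846, then 8145, 8801 and 8283, then 6504 and 5528, and it rose 2.99-fold at 12 h (1.58 ± 0.10, adjusted p = 5.38e-07) and 2.14-fold at 72 h (adjusted p = 2.09e-05).

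Lists of commonly used target genes, which share members with the groups above, changed in no single direction. At 12 h the calls on the 15 TGF-beta targets tested were 2 higher, Pmepa1 and Bhlhe40 (listed as Bhlhb2), and 0 lower. At 72 h these 2 were again called higher and 1, Tgfbi, lower. Bhlhe40, a helix-loop-helix repressor, was at 109, 119 and 137, then 335, 338 and 264, then 415 and 406, so that the 3 groups did not overlap. It rose 2.55-fold at 12 h (1.35 ± 0.14, adjusted p = 3.42e-05) and 3.37-fold at 72 h (1.75 ± 0.15, adjusted p = 7.76e-06). Without the fold minimum the adjusted p was below 0.05 for 5 higher and 1 lower at 12 h, and for 3 higher and 3 lower at 72 h. Over all genes tested these shares were 2.87% higher and 1.5% lower at 12 h, and 6.08% and 5.41% at 72 h. The 1 lower at 12 h was Timp3, an inhibitor of matrix proteases (-0.53, adjusted p = 0.00681). At 72 h the lower genes beside Tgfbi were the contractile gene Tagln (-0.52, adjusted p = 0.0114) and the collagen crosslinking enzyme gene Lox (-0.57, adjusted p = 0.0225). Ctgf, a matrix growth factor target, was higher at 12 h (0.71 ± 0.13, adjusted p = 0.00532), under 2-fold. The median change of the 15 genes was 0.14 at 12 h and -0.02 at 72 h. Of 12 BMP targets tested, 1 was called at each time, Id2, with medians of -0.25 and -0.20. Without the fold minimum the adjusted p of the BMP targets was below 0.05 for 1 higher and 0 lower at 12 h. At 72 h it was below 0.05 for 3 higher (Id2, Smad6 and Smad7) and 1 lower (Id1). Hey1, another gene that BMP signals raise, was not called, with a change of -0.77 at 12 h (adjusted p = 0.152) and -0.98 at 72 h (adjusted p = 0.0541).

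**Figure D5:**
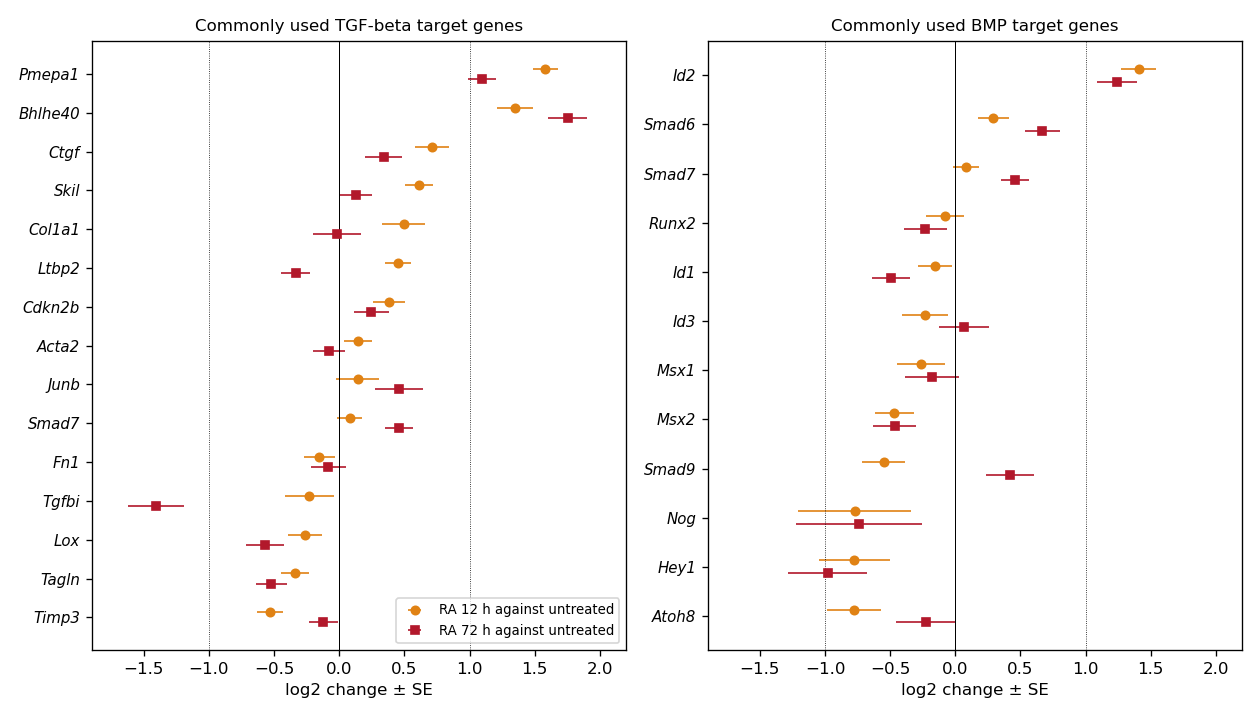
Log2 change with its SE of commonly used TGF-beta target genes (left, 15 tested) and BMP target genes (right, 12 tested) after 12 h of RA (circles) and 72 h (squares), against untreated cells; dotted lines mark 2-fold. Pmepa1 and Bhlhe40 lie beyond 2-fold on the left at both times and Tgfbi only at 72 h, and Id2 alone lies beyond 2-fold in the higher direction on the right.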

How the data were processed

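Polyadenylated RNA of 8 libraries was sequenced. Per the study's methods, the authors aligned reads to mm9 with Tophat, counted them with Cufflinks and Ensembl models and normalised with DESeq. The labels describe DpnII tag libraries. The deposited table gives normalised reads per gene, with decimal commas. Its columns have identical sorted values (range 1 to 165593, total 9442018.6), so the authors' values were quantile normalised, are not whole counts and hide the depth. One line without a gene was left out, and the authors' log2 ratios of group averages were not used.

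Values were transformed as log2(value + 1), so fold changes of low genes are understated. The 12673 genes with a mean of at least 10 were tested with limma 3.58.1 (R 4.3.3; variance trend, 1 model of the 3 groups, two-sided p, Benjamini-Hochberg over these genes in each contrast), and the code was tested on simulated data. A call needed an adjusted p below 0.05 and a 2-fold change. Values are given per library for every member called or with an adjusted p below 0.05 in a contrast, and for the highest described member of each role. Of the other pathway lists, called genes were named, or else the gene with the largest change. Rgma, Ctgf, Timp3, Tagln, Lox and Hey1 were chosen after their values were seen. The genes and lists were chosen with earlier results of these data known. Of the genes that matched, 1 is not reported here, nor is 1 gene of a target list, and counts over members and lists leave them out.

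Alternatives were a pseudocount of 10, no filter, a replicate block, the side of the shared axis as a term, fits of the 2 groups compared, removal of the trend with genomic span (lowess, span 0.3), each library left out in turn, no fold minimum and a 3-fold minimum. Coordinates are 1-based on mm9, in which 21465 of 22200 identifiers (96.7%) were found. Bmp8a and Bmp8b are close copies, and overlapping genes may share reads. Figures were drawn with matplotlib 3.10.9.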

Additional observations from a re-analysis of the deposited data

Results flagged for a closer look

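The log2 changes of 3 of these genes against untreated cells differed by at least 2-fold between 72 h and 12 h of RA, tested in limma as the contrast of the RA times. Without the fold minimum the adjusted p was below 0.05 for 8 of the 43 tested genes, the others being Tgfb1, Tgfb2, Ltbp2, Smad1 and Smad9. Gdf5 was higher by 1.07, Chrd lower (-1.38) and Tgfbi lower (-1.18), each with the adjusted p given above. The untreated libraries cancel in this difference. As stated above, the calls on Chrd and Tgfbi were lost in some alternative fits, and RA and time in culture cannot be told apart at 72 h.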

How the results depend on the processing

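Of 714 alternative values for changes of single genes, 695 kept their direction and their side of the threshold, 14 calls were lost and 2 were gained. These values cover only the 17 genes with an adjusted p below 0.05 in at least 1 comparison of the main fit. Gains in the other tested genes cannot appear among them. The lost calls were those of Chrd (7) and Tgfbi (2) between the RA times and of Bmp4 at 72 h (5). For many of the 695 little could change. Dropping the filter, fitting only the 2 groups compared or leaving out a library of the third group cannot alter a log2 change. A change that was not called also counts as kept while it stays uncalled. The sign turned in 3, of changes near 0 that were not called: Ltbp3 between the RA times ran from -0.23 to 0.14 over the fits without 1 library (0.03 without RA 12 h replicate 1 and 0.14 without RA 72 h replicate 2), and Smad1 at 12 h from -0.13 to 0.0060 (without untreated replicate 1). Counts of calls are given for RA 12 h, RA 72 h and between the RA times. Without a fold minimum 6, 14 and 8 pathway genes passed (554, 1456 and 740 of all genes), and with a 3-fold minimum 0, 1 and 0 (59, 165 and 41). At a minimum of 3-fold, the 0 pathway genes of the first and last comparison stand beside the 6 and 8 with an adjusted p below 0.05. A pseudocount of 10 left 2, 7 and 1. No filter on low values gave 2, 8 and 2, the gain at 72 h being Gdf9 (1.07, adjusted p = 0.05). Leaving out 1 library gave 2 to 2, 6 to 8 and 1 to 3 pathway genes (the 1 was without RA 72 h replicate 1), and 148 to 322, 356 to 641 and 150 to 211 of all genes; 322 was without untreated replicate 3. The replicate block gave 2, 6 and 2 pathway genes and 174, 430 and 172 of all genes. Replicate numbers did not pair the libraries: deviations of same-numbered libraries correlated between -0.474 and 0.42, and not every library correlated best with its own number. Depth is unknown after the authors' normalisation, and the 2 libraries at 72 h limit precision there. The cause of these shifts was not tested.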

Other observations

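Several genes outside the lists' calls had an adjusted p below 0.05 in limma without reaching 2-fold. Nbl1, a secreted BMP antagonist, was at 197, 240.2 and 166 in untreated cells, 106, 102 and 158 after 12 h of RA, and 93.8 and 105 after 72 h, with changes of -0.73 ± 0.19 (adjusted p = 0.0443) and -0.99 ± 0.21 (adjusted p = 0.00708). Bmper, a modulator of BMP availability, was at 667, 608 and 815, then 1004, 876 and 944, then 1164 and 1033, and its change at 72 h was 0.66 ± 0.13 (adjusted p = 0.00515). Crim1, of the same list of antagonists and modulators, was higher at 12 h (0.40 ± 0.10, adjusted p = 0.0469). Bgn, the matrix proteoglycan biglycan, was lower at 72 h (-0.67 ± 0.10, adjusted p = 0.000925), and the fibrillin gene Fbn1 was lower at both times (-0.67 and -0.61, adjusted p = 0.0247 and 0.0368). Among intracellular regulators at 12 h, the Smad co-repressor gene Skil (0.61, adjusted p = 0.00404) and the ubiquitin ligase genes Smurf1 (0.60, adjusted p = 0.0194) and Nedd4l (0.50, adjusted p = 0.0367) were higher. These genes were chosen after their values were seen.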
